A study of Mus musculus with 4 samples.

Results

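*Ebf1*-positive nuclei with *Gad1* or *Gad2*, a combination found in striatal projection neurons, were examined in single-nucleus RNA sequencing of the mouse medial neocortex of E16.5 embryos. They were chosen by transcript counts per nucleus, and not all of them had the profile of these neurons. A member had 1500 to 60000 transcripts in all, at least 2 of *Ebf1*, at least 2 of *Gad1* and *Gad2* together, 0 of *Lhx6*, at most 4 of *Adarb2*, at most 1 of *Flt1* and at most 1 of *Mki67* and *Top2a* together. This rule found 87 nuclei among 4105 nuclei with at least 2 transcripts of *Gad1* and *Gad2* (below, *Gad* nuclei) and among 29656 nuclei in the transcript range. Of these 87, 62 (71.3%) came from a single library, control replicate 1.

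The 2 control libraries came from *Sst-Cre/tdTomato* embryos, which carry Cre recombinase under the somatostatin gene *Sst* and a red fluorescent reporter, and the 2 Dnmt1 KO libraries from *Sst-Cre/tdTomato/Dnmt1 loxP2* embryos, which additionally carry loxP-flanked alleles of the DNA methyltransferase gene *Dnmt1*. The background strain was C57BL/6 J. Both genotypes therefore share the Cre driver and the reporter, and the deletion is directed at cells that express *Sst*. *Sst* had 0 transcripts in 87 of 87 members, which allows a share of up to 3.45% of nuclei with a transcript by counting error alone, and it was found in 2.81% to 7.74% of the other *Gad* nuclei of each library, so this 0 says little of its expression. Below, values listed for the 4 libraries follow the order Dnmt1 KO replicate 1, Dnmt1 KO replicate 2, control replicate 1, control replicate 2 (library order). *Dnmt1* was at 210, 75.6, 40.7 and 39.6 CPM in the members in library order, where CPM is the count of a gene in the summed nuclei scaled to a total of 1000000 transcripts. Of the 19 *Dnmt1* transcripts in Dnmt1 KO replicate 2, 8 came from 1 nucleus, without which the value was 45.3 CPM. These counts cover the whole gene and do not separate its deleted exons. The labels place control replicate 2 in batch 2 with 2 sublibraries and the other libraries in batch 1 with 8 sublibraries each, so batch 2 holds control nuclei alone. Brains of 2 mice were used per genotype, so n = 2 is the number of animals.

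Striatal projection neurons are the GABAergic output neurons of the striatum. They are born in the lateral ganglionic eminence, a progenitor zone of the ventral forebrain, whereas many cortical interneurons are born in the medial and caudal eminences. Direct-pathway cells come to express the dopamine receptor gene *Drd1* with *Tac1* and *Pdyn*, and indirect-pathway cells *Drd2* with *Penk* and *Adora2a*. *Ebf1* encodes an early B-cell factor, a transcription factor required for the differentiation of part of the direct-pathway cells. *Meis2* encodes a homeobox factor of the lateral eminence, *Foxp1* a forkhead repressor of projection neurons and *Zfhx3* a zinc finger homeobox factor. On GRCm39, *Ebf1* lies on chromosome 11 (44508138 to 44898918), *Meis2* on chromosome 2 (115693062 to 115896341), *Foxp1* on chromosome 6 (98902299 to 99499685) and *Zfhx3* on chromosome 8 (108669276 to 109688262).

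The members were unevenly distributed over the libraries. Dnmt1 KO replicate 1 held 2 of 381 *Gad* nuclei (0.525%, exact 95% binomial interval 0.0636 to 1.88). Dnmt1 KO replicate 2 held 22 of 1741 (1.26%, 0.794 to 1.91). Control replicate 1 held 62 of 1484 (4.18%, 3.22 to 5.32), and control replicate 2 held 1 of 499 (0.200%, 0.00507 to 1.11). The interval of control replicate 1 did not reach those of the other libraries, and the shares of the Dnmt1 KO libraries lay between those of the controls. The intervals cover counting error alone. Members averaged 0.894% ± 0.522 (SD, n = 2) of the *Gad* nuclei from Dnmt1 KO brains and 2.19% ± 2.81 (SD, n = 2) of those from control brains. The difference of -1.29 percentage points had p = 1.00 in a two-sided exact permutation test, in which 2 against 2 libraries cannot go below 0.33. Without control replicate 1 the difference turned to 0.694 points, and without control replicate 2 it was -3.28 points. With every nucleus thinned to 1500 transcripts and at least 1 transcript required of *Ebf1* and of *Gad1* or *Gad2*, the shares in library order were 0.904%, 1.91%, 8.86% and 0.711%, the third from 114 of 1287 nuclei. The limits on *Lhx6*, *Adarb2*, *Flt1*, *Mki67* and *Top2a* were unchanged and excluded fewer nuclei at this depth. The 114 thus include nuclei that are not members, and these shares are of a wider set.

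**Figure D1:**
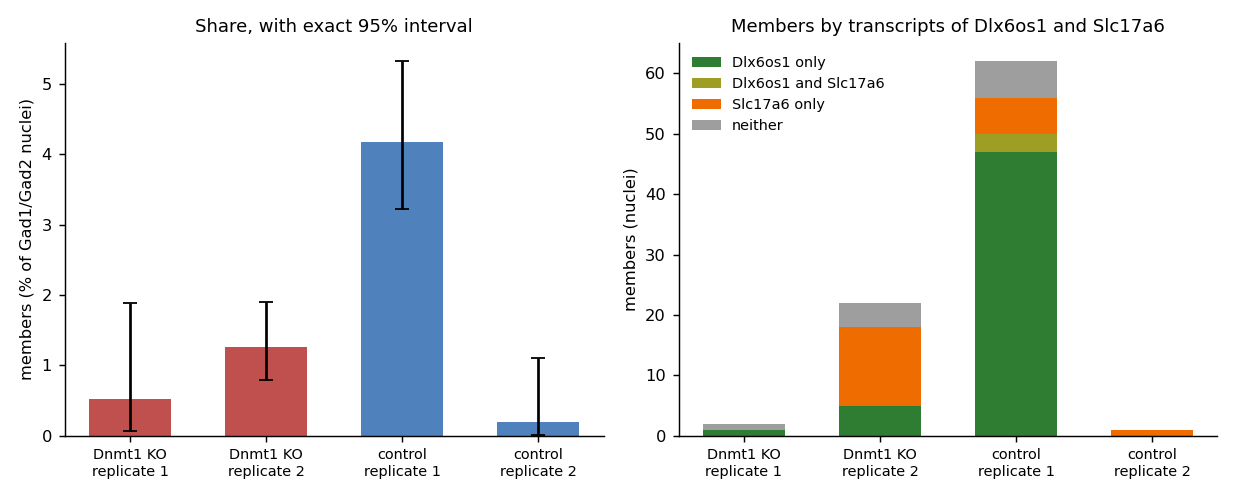
Left, members as a percentage of the nuclei with at least 2 transcripts of Gad1 and Gad2 in each library, with exact 95% binomial intervals. Right, number of members in each library, divided by whether the nucleus had a transcript of Dlx6os1, of Slc17a6, of both or of neither. Control replicate 1 holds 62 members, of which 47 had Dlx6os1 without Slc17a6, and Dnmt1 KO replicate 2 holds 22, of which 13 had Slc17a6 without Dlx6os1.

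Within control replicate 1 the members came from 8 of 8 sublibraries (1.72% to 6.82% of the *Gad* nuclei in each) and from 5 of 5 wells of the first barcoding round (3.48% to 5.45%). The members of Dnmt1 KO replicate 2 came from 7 of 8 sublibraries, and the 2 members of Dnmt1 KO replicate 1 from 1 sublibrary. No barcode was shared between libraries. A doublet caller marked 6 members, of which 4 were in control replicate 1 and 1 each in Dnmt1 KO replicate 2 and control replicate 2. Members of control replicate 1 had a median of 8262 transcripts and those of Dnmt1 KO replicate 2 one of 8269.5, against 10147.5 and 10091 in the other *Gad* nuclei of these libraries.

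The label was then checked against markers that the rule had not used, with a division chosen after the values had been seen. *Dlx6os1* is a long noncoding RNA of the GABAergic lineage, and *Slc17a6* encodes the vesicular glutamate transporter VGLUT2. In control replicate 1, 47 of 62 members had *Dlx6os1* and no *Slc17a6*, 6 had *Slc17a6* alone, 3 had both and 6 had neither. In Dnmt1 KO replicate 2, 5 of 22 members had *Dlx6os1* alone, 13 had *Slc17a6* alone and 4 had neither. The single member of control replicate 2 had *Slc17a6* alone. Dnmt1 KO replicate 1 contributed 1 nucleus with *Dlx6os1* and 1 with neither. A transcript of *Slc17a6* was found in 59.1% of the members of Dnmt1 KO replicate 2 and in 12.2% of its other *Gad* nuclei, and in 40.9% and 2.62% after thinning to 1500 transcripts. In the nuclei of that library with 0 transcripts of *Gad1* and *Gad2* and at least 2 of the excitatory factors *Neurod2* and *Neurod6* (*Gad*-negative), the thinned share was 11.2%. *Dlx6os1* was found in 80.6% of the members of control replicate 1 and in 2.70% to 7.23% of such *Neurod2*- or *Neurod6*-positive nuclei.

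The members with *Slc17a6* alone carried another set of genes. In Dnmt1 KO replicate 2 these 13 nuclei had 20517 CPM of *Nrg1*, which encodes the ErbB4 ligand neuregulin 1, with 0 transcripts of *Zfhx3* and 0 of *Isl1*, and 1807 CPM of *Ebf1*. The 6 such nuclei of control replicate 1 had 14638 CPM of *Nrg1*, 32.6 CPM of *Zfhx3* and 4005 CPM of *Ebf1*. The nucleus of control replicate 2 had 20895 CPM of *Nrg1* (527 transcripts) and 2 transcripts of *Ebf1*. By contrast, the 47 nuclei of control replicate 1 with *Dlx6os1* alone had 17380 CPM of *Ebf1*, 3655 CPM of *Zfhx3*, 338 CPM of *Isl1* and 1583 CPM of *Nrg1*. The 5 nuclei of Dnmt1 KO replicate 2 with *Dlx6os1* alone had 4705 CPM of *Ebf1*, 959 CPM of *Zfhx3*, 66.9 CPM of *Isl1* and 2732 CPM of *Nrg1*. These sums rest on few nuclei: their *Ebf1* transcripts were 2, 7, 7, 159 and 247, with a median of 7 against 15 in the 13 nuclei with *Slc17a6* alone, and 5 of their 6 *Isl1* transcripts came from 1 nucleus. *Zfhx3* was found in 4 of the 5, and the nucleus without it had 207 transcripts of *Erbb4* and 47 of *Sox6*, genes of medial interneurons. By *Dlx6os1*, *Slc17a6*, *Zfhx3*, *Isl1* and *Nrg1*, the striatal label described most members of control replicate 1. By these genes most members of Dnmt1 KO replicate 2 went against it, as did the member of control replicate 2 apart from 2 transcripts of *Zfhx3*. *Dlx6os1* and *Slc17a6* also defined the division. Other striatal factors were present: of the 13 nuclei above, 13 had *Meis2*, 10 *Bcl11b*, 7 *Foxp1* and 7 *Foxp2*. The member of control replicate 2 had 207 transcripts of *Meis2*, 24 of *Foxp1*, 17 of *Foxp2*, 4 of *Bcl11b* and 0 of *Isl1* and *Rarb*. *Ebf1* chose the members, so its values above are a description and do not bear on the label. The remaining member of Dnmt1 KO replicate 1 had 184 transcripts of *Slit3*, 20 of *Prox1*, 3 of *Ebf1* and 0 of *Meis2* and *Zfhx3*. One member of Dnmt1 KO replicate 2 had 62 transcripts of *Ebf1* and 8 of the pericyte gene *Pdgfrb*, with 0 of *Meis2*.

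*Ebf1* itself chose the members and is given as a description. The number of *Ebf1* transcripts per member was 3 and 136 in the nuclei of Dnmt1 KO replicate 1. It ranged from 2 to 247 with a median of 13.5 in Dnmt1 KO replicate 2, and from 3 to 562 with a median of 124 in control replicate 1. More than 100 *Ebf1* transcripts were present in 1 nucleus of Dnmt1 KO replicate 1, 2 nuclei of Dnmt1 KO replicate 2 and 38 of control replicate 1. At the threshold, 2 members had 2 transcripts of *Ebf1* and 4 had 3, while 33 nuclei that met every other condition had 1. Of these 33, 24 had *Meis2*, 29 *Foxp1*, 17 *Zfhx3* and 2 *Isl1*, and of the 6 members with 2 or 3 *Ebf1* transcripts, 1 had *Isl1*. *Ebf1* was not restricted to GABAergic nuclei. In library order, 343, 884, 492 and 209 nuclei had at least 2 transcripts, of which 340, 796, 283 and 201 had fewer than 2 of *Gad1* and *Gad2*. Such counts occurred in 3.18% to 4.18% of the *Neurod2*- or *Neurod6*-positive *Gad*-negative nuclei and in 0.380% to 2.89% of the *Lhx6*-positive *Gad* nuclei.

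Among the other marker genes, *Meis2* ranged in control replicate 1 from 0 to 22681 CPM per nucleus with a median of 7397, and 61 of 62 members had a transcript. In Dnmt1 KO replicate 2 it ranged from 0 to 20440 with a median of 3849 CPM, and 20 of 22 had one. *Foxp1* had a median of 951 CPM (0 to 14180) in control replicate 1 and of 319 CPM (0 to 2237) in Dnmt1 KO replicate 2. *Zfhx3* had a median of 2443 CPM (0 to 12301) in control replicate 1, where 56 of 62 members had a transcript. In Dnmt1 KO replicate 2 its median was 0, with 8 of 22 members positive and a highest value of 3420 CPM. *Bcl11b*, which encodes the zinc finger factor CTIP2 of striatal and corticofugal neurons, had medians of 2307 and 334 CPM in these libraries. *Isl1*, a LIM homeobox gene of the direct pathway, was found in 46 of 62 and in 2 of 22 members, and in 0.779% of the *Neurod2*- or *Neurod6*-positive nuclei of control replicate 1. After thinning to 1500 transcripts *Zfhx3* was found in 87.1% of the members of control replicate 1 and in 22.7% of those of Dnmt1 KO replicate 2, against 3.21% and 3.46% of such excitatory nuclei. The nuclei of both libraries overlapped for each of these genes, with the higher medians in control replicate 1.

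**Figure D2:**
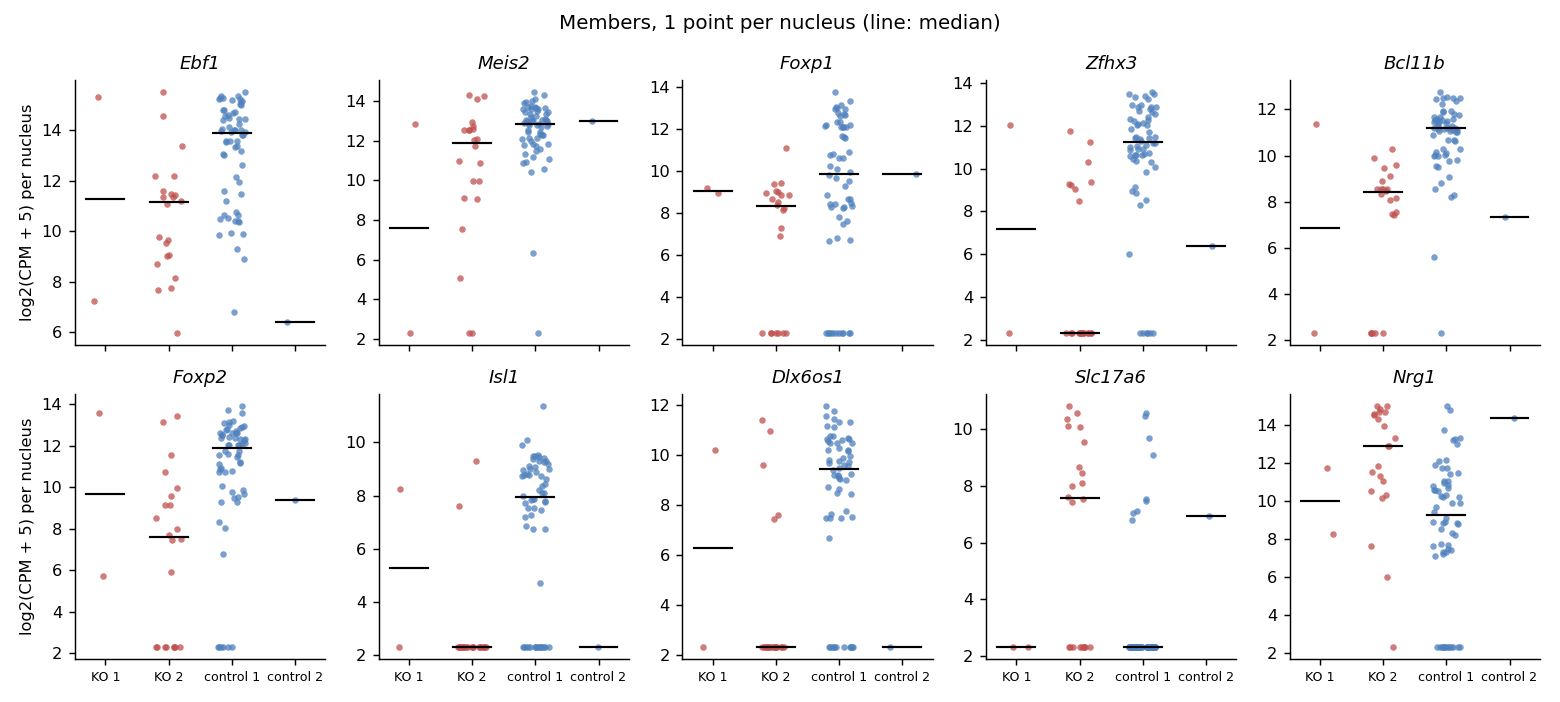
Transcript levels in single members, as log2(CPM + 5) per nucleus, by library (KO, Dnmt1 KO), with 1 point per nucleus and a line at the median. Zfhx3, Isl1 and Dlx6os1 were found in most members of control replicate 1 and in 8, 2 and 5 of the 22 members of Dnmt1 KO replicate 2, where Slc17a6 was found in 13.

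The members were next described against the other *Gad* nuclei of their library. The rule used genes of the same nuclei, so these differences are descriptions with no test. A gene was counted as higher or lower where its CPM, with 5 CPM added on both sides, differed by at least 1.5-fold in the same direction in each of the libraries with at least 10 members, Dnmt1 KO replicate 2 and control replicate 1. Of 7775 genes compared, 157 (2.02%) were higher and 321 (4.13%) lower in the members, and the median log2 ratio was 0.00. The other *Gad* nuclei of control replicate 1 include 147 with at least 2 transcripts of *Ebf1* that failed another condition.

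Transcription factors of the striatal lineage were the list with the highest number of genes higher in the members. Of 17 such genes outside the rule 12 were compared, of which 7 (*Meis2*, *Zfhx3*, *Foxp2*, *Zfp521*, *Pbx3*, *Meis1* and *Zfhx4*) were higher and *Sp9* lower, with a median log2 ratio of 1.41. *Zfhx3* was at 589, 454, 3095 and 79.3 CPM in the summed members in library order, against 78.7, 124, 494 and 31.1 CPM in the other *Gad* nuclei. *Foxp2*, the forkhead gene also known from speech disorders, was at 1766, 963, 3761 and 674 CPM against 227, 359, 967 and 294 CPM. For both genes the members were above the other nuclei in each library, but 2 libraries rest on 1 nucleus each. In Dnmt1 KO replicate 1, 1 nucleus held 14 of 14 *Zfhx3* and 41 of 42 *Foxp2* transcripts. In control replicate 2 the values rest on 2 transcripts of *Zfhx3* and 17 of *Foxp2* in 1 nucleus that the doublet caller marked. Against *Meis2*-positive *Gad* nuclei alone the mean log2 ratio was 1.33 for *Foxp2*, -0.40 for *Zfhx3* and -0.058 for *Meis2*. These nuclei were chosen for *Meis2*, so its own value depends on that choice. *Zfp521*, a zinc finger gene whose product interacts with EBF1, was at 1135, 418, 1612 and 357 CPM against 403, 126, 225 and 130 CPM. *Isl1* was found in too few nuclei for this count, with 42.0, 23.9, 280 and 0 CPM against 1.61, 3.25, 41.0 and 0.378 CPM. Of the 8 genes of the direct-pathway list, which holds *Isl1*, 2 others were compared. Of these, 0 were higher and 0 lower, with a median log2 ratio of -0.20. *Sfxn1* and *Eya1* of that list were found in 18 and 14 of the 87 members. *Foxp1* and *Bcl11b* differed by 1.5-fold in control replicate 1 alone, with log2 ratios of 1.12 and 1.64 there and of 0.19 and 0.17 in Dnmt1 KO replicate 2. *Rarb*, a retinoic acid receptor gene of striatal neurons, was at 867 against 369 CPM in control replicate 1 and at 75.6 against 58.6 CPM in Dnmt1 KO replicate 2. Single nuclei carried part of the values of Dnmt1 KO replicate 2. Without the nucleus that had most transcripts of the gene, *Zfp521* was at 218 CPM there, still above the other *Gad* nuclei. *Foxp1* was then at 347 CPM and *Rarb* at 46.3 CPM, both below them. *Isl1* was then at 4.11 CPM from 1 transcript, too few to give a direction.

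Several pathway genes of mature projection neurons were at or near 0. *Drd1*, *Tac1*, *Penk*, *Chrm4* and *Gpr6* had 0 transcripts in the 87 members, and *Drd2* had 18 transcripts in 4 members. *Pdyn*, *Adora2a* and *Ppp1r1b*, which encodes the phosphoprotein DARPP-32, had 1 transcript each. Of the 16 genes of striatal signalling 10 were compared and *Ano3* was higher, at 94.3 against 46.7 CPM in control replicate 1 and 79.6 against 16.4 CPM in Dnmt1 KO replicate 2 (45.2 CPM without 1 nucleus). *Pde10a*, a phosphodiesterase gene of striatal neurons, was found in 67 of 87 members and was at 462, 267, 611 and 357 CPM against 474, 467, 540 and 529 CPM. Summed, the signalling list was at 1716 against 1681 CPM in control replicate 1 and at 2782 against 1513 CPM in Dnmt1 KO replicate 2. Much of the latter sum was *Arpp21*, at 1377 against 508 CPM. One nucleus held 160 of its 346 transcripts, and without that nucleus *Arpp21* was at 858 CPM. *Oprm1*, the mu-opioid receptor gene of striosomes, was found in 19 of 87 members, 17 of them in control replicate 1 (135 against 27.1 CPM). *Calb1*, a matrix gene of the mature striatum, had 0 transcripts in the members of each library, and *Epha4*, an ephrin receptor gene of the matrix, was at 1288 against 616 CPM in control replicate 1 and 609 against 319 CPM in Dnmt1 KO replicate 2.

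Among 27 genes of axon guidance and adhesion 25 were compared, with 4 higher, 3 lower and a median log2 ratio of 0.13. *Dcc*, the netrin receptor gene, was at 2943, 12149, 8785 and 1229 CPM in the members against 3086, 1980, 2506 and 1856 CPM in the other *Gad* nuclei. The members were thus above the others in Dnmt1 KO replicate 2 and control replicate 1 and below them in the libraries with 2 members and 1 member. One nucleus of Dnmt1 KO replicate 2, without *Meis2*, held 1359 of its 3053 *Dcc* transcripts, and without it *Dcc* was at 7227 CPM. *Robo2*, a Slit receptor gene, was at 1429, 3737, 5292 and 3846 CPM against 956, 1366, 2220 and 1442 CPM. *Robo1* was at 5196 against 1921 CPM in control replicate 1 and at 1341 against 942 CPM in Dnmt1 KO replicate 2, where 1 nucleus held 109 of 337 transcripts and the value without it was 927 CPM. *Erbb4*, the neuregulin receptor gene of migrating interneurons, was at 0, 975, 84.6 and 0 CPM in the members against 14117, 15137, 11013 and 13654 CPM.

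Interneuron genes of the medial eminence, whose factor *Lhx6* the rule removes, were low in the members. Each of the 6 compared genes of the interneuron list of the medial eminence was lower (*Maf*, *Satb1*, *Sox6*, *Erbb4*, *Cxcr4* and *Nxph1*), with a median log2 ratio of -3.26. *Nxph1*, which encodes the neurexin ligand neurexophilin 1, was at 147 against 4948 CPM in Dnmt1 KO replicate 2 and at 9.76 against 3441 CPM in control replicate 1. Summed over the list, the members of Dnmt1 KO replicate 2 and control replicate 2 had 2256 and 2062 CPM, and those of control replicate 1 had 221 CPM. The sum of control replicate 2 came from 1 nucleus that the doublet caller marked. That nucleus had 49 transcripts of *Sox6* (1943 CPM) and 0 of *Maf*, *Erbb4*, *Cxcr4* and *Nxph1*. *Sox6* was found in 11 of the 22 members of Dnmt1 KO replicate 2. In Dnmt1 KO replicate 2, single nuclei held 207 of 245 *Erbb4* and 36 of 37 *Nxph1* transcripts, and without them the values were 175 and 4.12 CPM. Of the caudal interneuron list 3 genes were compared and *Npas3* was lower, at 294, 1321, 106 and 1665 CPM against 5032, 3436, 2767 and 3981 CPM (819 CPM in Dnmt1 KO replicate 2 without 1 nucleus). *Prox1* of that list was at 841, 63.7, 4.88 and 0 CPM against 42.9, 57.7, 48.9 and 48.3 CPM. Its 20 transcripts in Dnmt1 KO replicate 1 came from 1 nucleus, as did 7 of the 16 in Dnmt1 KO replicate 2. GABAergic lineage genes outside the rule were also lower, 6 of 8 compared, with *Dlx6os1* at 275 against 1652 CPM in Dnmt1 KO replicate 2 and at 769 against 2003 CPM in control replicate 1. Of 19 compared receptor genes for glutamate and GABA 5 were lower (*Gria1*, *Gria4*, *Grik1*, *Grik3* and *Grm5*) and 0 higher. *Gria1*, an AMPA receptor subunit gene, was at 153 against 2952 CPM in control replicate 1 and 450 against 4211 CPM in Dnmt1 KO replicate 2 (194 CPM without 1 nucleus). Of 5 compared genes of excitatory neurons *Slc17a6* was higher, at 84.6 against 34.7 CPM in control replicate 1 and 330 against 32.2 CPM in Dnmt1 KO replicate 2. The summed lists of endothelial cells, microglia and oligodendrocyte precursors reached at most 19.9 CPM in the members. The mural list reached 151 CPM in Dnmt1 KO replicate 2, against 28.3 CPM in its other *Gad* nuclei, with *Vtn* and *Kcnj8* at 0, and single nuclei held 18 of 18 transcripts of *Abcc9*, 8 of 9 of *Pdgfrb* and 3 of 3 of *Rgs5*. The radial glia list was at 84.1, 199, 71.6 and 1150 CPM in library order, against 379, 161, 169 and 123 CPM, with *Hes1* and *Hes5* at 0 in each library. Their part in these results was not tested.

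**Figure D3:**
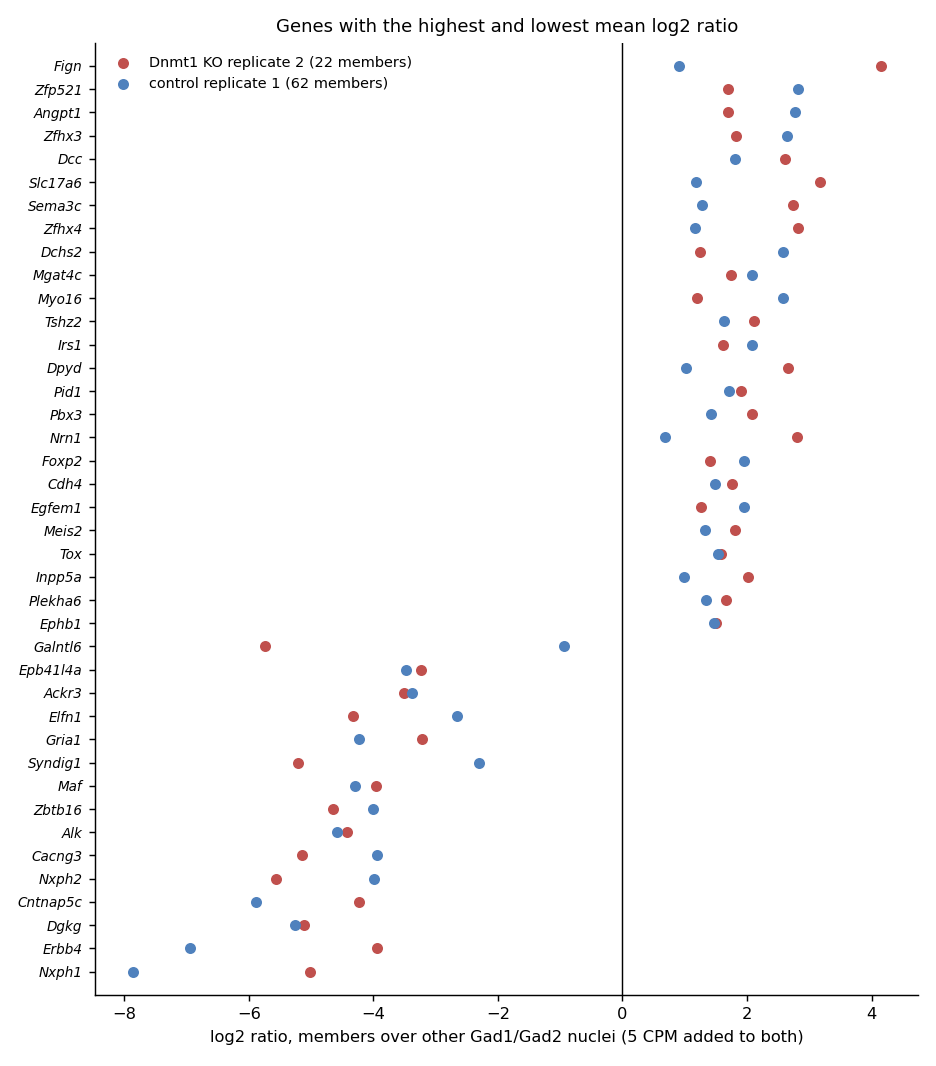
The 25 genes with the highest and the 15 with the lowest mean log2 ratio between members and other Gad1/Gad2 nuclei, with 5 CPM added on both sides, for Dnmt1 KO replicate 2 (22 members) and control replicate 1 (62 members). The genes were chosen for these values. Nxph1 and Erbb4 lie furthest below 0 on average, and Fign, Slc17a6, Sema3c and Nrn1 lie further above 0 in Dnmt1 KO replicate 2 than in control replicate 1.

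Ordered by the mean log2 ratio of both libraries, the highest protein-coding genes outside the rule were *Fign*, *Zfp521*, *Angpt1*, *Zfhx3* and *Dcc*. *Fign* was at 788 against 39.6 CPM in Dnmt1 KO replicate 2 and at 150 against 77.2 CPM in control replicate 1. *Angpt1*, which encodes the vascular growth factor angiopoietin 1, was at 135 against 38.4 CPM and at 415 against 56.2 CPM. In control replicate 1 *Angpt1* was found in 43.5% of the members and 15.4% of the other *Gad* nuclei. *Sema3c*, which encodes a secreted semaphorin, was at 497 against 70.1 CPM in Dnmt1 KO replicate 2 and at 141 against 55.5 CPM in control replicate 1. When nuclei with *Slc17a6* were left out, the mean log2 ratios of *Sema3c* and *Nrn1* turned to -1.96 and -0.82, and 257 genes were higher and 393 lower. That comparison rests on 9 members of Dnmt1 KO replicate 2 and 53 of control replicate 1.

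Control replicate 1 allowed a comparison with related nuclei of the same library, since its 62 members had 614941 transcripts. A further 111 nuclei differed from the members in the rule by *Adarb2* alone, with more than 4 transcripts of this marker gene of caudal interneurons. They had 9451 CPM of *Ebf1* against 14390 CPM in the members, 3640 against 2480 CPM of *Foxp1*, 2675 against 867 CPM of *Rarb*, 533 against 184 CPM of *Ikzf1*, which encodes the zinc finger factor Ikaros, and 287 against 94.3 CPM of *Ano3*. *Zfhx3* was lower in them, at 786 against 3095 CPM, as was *Dcc*, at 2789 against 8785 CPM. *Isl1* was similar in value, at 261 and 280 CPM. *Tac1*, at 0 in the members, had a transcript in 11.7% of them. *Gad* nuclei with at least 2 transcripts of *Meis2*, at most 1 of *Ebf1* and the other conditions met numbered 209. They had 6568 CPM of *Meis2* and 3200 CPM of *Foxp1*, near or above the members' values, with 47.6 CPM of *Isl1*, 277 CPM of *Drd2*, 85.7 CPM of *Six3* and 105 CPM of *Sp9*. The 62 members of this library had 9.76 CPM of *Six3* and 4.88 CPM of *Sp9*. Their *Drd2* is given as a count and not as CPM, 16 of their 614941 transcripts. *Six3* and *Sp9* encode factors of the indirect pathway. Nuclei with the *Ebf1* and *Adarb2* profile amounted to 0, 23, 111 and 1 in library order, and the *Meis2* nuclei 16, 106, 209 and 22, among the same 381, 1741, 1484 and 499 *Gad* nuclei.

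**Figure D4:**
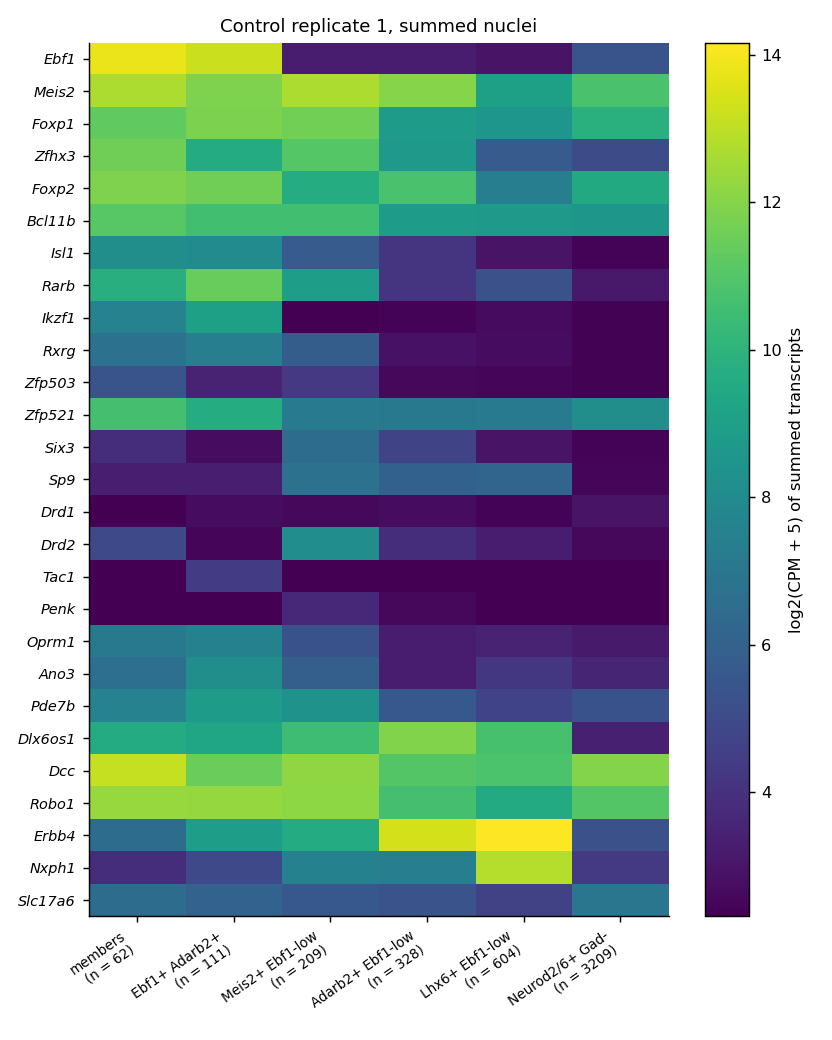
Levels in summed nuclei of control replicate 1, as log2(CPM + 5), for the members, Ebf1-positive Gad nuclei above the Adarb2 limit, Meis2-positive, Adarb2-positive and Lhx6-positive Gad nuclei with at most 1 transcript of Ebf1, and Gad-negative nuclei with Neurod2 or Neurod6 (n, nuclei in each). Isl1, Rxrg and Zfp521 are high in both groups with Ebf1, Drd2, Six3 and Sp9 in the Meis2 group, and Erbb4 in the Adarb2 and Lhx6 groups.

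The members of control replicate 1 were not uniform. Among listed genes found in most of these nuclei, the 6 strongest Spearman correlations of CPM over the 62 nuclei, which share a library and differ in depth, were 0.73 for *Ebf1* with *Foxp2*, 0.60 for *Dcc* with *Pbx3* and for *Epha4* with *Zfhx3*, -0.69 for *Dcc* with *Foxp1*, -0.64 for *Ebf1* with *Plxna4* and -0.59 for *Foxp1* with *Pbx3*. *Ebf1* and *Meis2* had a coefficient of 0.00. *Ebf1* also chose the members. Of the 62 nuclei 9 had *Slc17a6*, and the 6 with *Slc17a6* and no *Dlx6os1* had 4005 CPM of *Ebf1* and 651 CPM of *Foxp2*. The 47 with *Dlx6os1* and no *Slc17a6* had 17380 and 4374 CPM. The part of this difference in the coefficients was not tested. A division at 10 transcripts of *Foxp1*, chosen after the values had been seen, gave 30 nuclei at or above and 32 below it, with 7 nuclei within 3 transcripts of the limit, so it marks ranges and not types. *Rarb* was found in 17 of 30 nuclei with more *Foxp1* and in 7 of 32 with less, *Ikzf1* in 8 and 0, and *Oprm1* in 15 and 2. *Dcc* had a median of 15.5 transcripts (0 to 541) with more *Foxp1* and of 128.5 (0 to 416) with less, and *Zfhx3* medians of 11 (0 to 104) and 31 (0 to 112). *Ebf1* medians were 187 and 66.5 transcripts. *Isl1* was found in 24 of 30 and 22 of 32 nuclei. *Slc17a6* was found in 4 and 5 nuclei, and the medians of all transcripts per nucleus were 8577.5 and 7744.

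**Figure D5:**
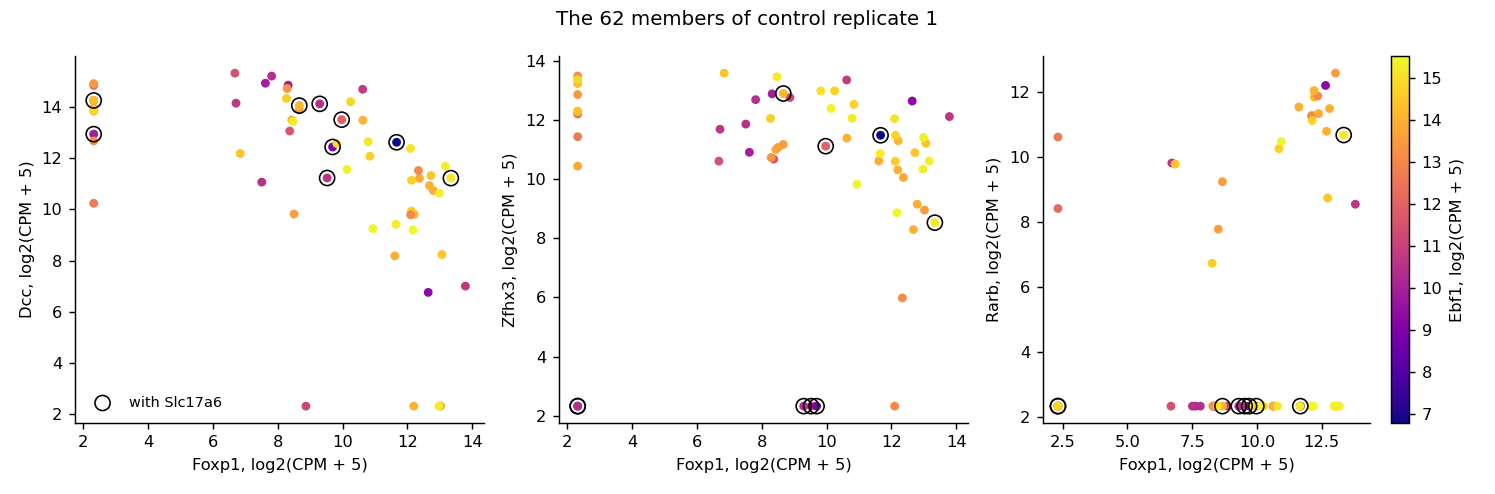
Foxp1 against Dcc, Zfhx3 and Rarb in the 62 members of control replicate 1, each as log2(CPM + 5) per nucleus, coloured by Ebf1 and with nuclei that had Slc17a6 ringed. Dcc was lower in most nuclei with high Foxp1, with exceptions, and 17 of the 24 nuclei with Rarb had at least 10 transcripts of Foxp1.

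Whether genotype altered expression in the members was asked with edgeR's quasi-likelihood test on counts summed per library. Of 2863 genes tested, 0 passed an adjusted p of 0.05 (0%), with 42 under 0.05 before adjustment. DESeq2 called 1 gene, *Slit3* (log2 fold change 6.97, DESeq2 adjusted p = 0.0491). The median log2 fold change of all genes tested was -0.02. Of the lists, 11 striatal transcription factors outside the rule were tested with a median log2 fold change of -1.49, 23 guidance genes with -0.22 and 6 methylation genes with -0.32, and 0 passed in either direction. The sums behind this test held 23787 transcripts of 2 nuclei, 251299 of 22, 614941 of 62 and 25221 of 1 nucleus, and they set nuclei of different *Slc17a6* status side by side. The test compares these sums.

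Genes with the smallest p are given as values. *Slit3*, which encodes a secreted guidance ligand of Robo receptors, was at 7735, 581, 45.5 and 0 CPM (log2 fold change 6.79, SE 1.85, edgeR adjusted p = 1.00), and the 184 transcripts of Dnmt1 KO replicate 1 came from 1 nucleus. In Dnmt1 KO replicate 2, 93 of 146 came from 1 nucleus, without which *Slit3* was at 245 CPM. *Adamtsl1* was at 294, 426, 11.4 and 0 CPM (log2 fold change 5.04, SE 0.95), with 80 of 107 transcripts of Dnmt1 KO replicate 2 in 1 nucleus. *Ror1*, *Ppp1r14c*, *Pde3a*, *Tmem132c*, *Mctp1* and *Zfp423* likewise had more CPM in both Dnmt1 KO libraries than in both controls, while *Galntl6* was at 0, 15.9, 454 and 79.3 CPM. These genes were chosen by the p of this same contrast, so their directions are a description. *Ror1* had 2 transcripts in Dnmt1 KO replicate 1. In the 1 nucleus of control replicate 2, *Ror1*, *Ppp1r14c*, *Pde3a* and *Tmem132c* had 0 transcripts. *Dnmt1* had a log2 fold change of 1.46 (SE 0.83, edgeR adjusted p = 1.00) from 5, 19, 25 and 1 transcripts.

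The interaction asked whether a genotype difference in the members differed from that in the other *Gad* nuclei. Of 11723 genes tested with edgeR on 8 sums with a term for the library, 0 passed (0%) and 317 were under 0.05 before adjustment. By DESeq2 0 genes passed, with 77 under 0.05 before adjustment. Restricted to members with *Dlx6os1*, a setting chosen after seeing the data, the fit used sums of 1, 5 and 50 nuclei with no nucleus of control replicate 2. Its median log2 value over 12683 genes tested was -0.62, against -0.034 over all members. With 1 control library in this fit, its calls are not read as a result. Over all members, the smallest edgeR adjusted p was 0.0514, for *Gna14*, with 17 transcripts in the members of Dnmt1 KO replicate 2, each in the same nucleus, and 2 in those of control replicate 1. The next genes were *Inf2*, *Gm31819*, *Tll1*, *Slit3*, *Sema3e*, *Gm14697*, *Adamtsl1*, *Adra1a* and *Prox1*. *Prox1*, a homeobox gene of caudal interneurons, had 20, 16, 3 and 0 transcripts in the members, and the 20 of Dnmt1 KO replicate 1 came from the same nucleus as *Slit3*. *Tll1* had 19, 1, 0 and 0 transcripts.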

How the data were processed

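The authors prepared nuclei from frozen medial neocortex, barcoded them by split-pool indexing (Parse Evercode) and deposited raw counts of transcripts per barcode and gene with no normalization, on GRCm39. Their aligner version and the counting of intronic reads and strand are not given in the sources used here. From these counts, barcodes with 1500 to 60000 transcripts were kept, a range the study states for reads. Cell types were not annotated. Doublets were called with scrublet at an expected rate of 5% and kept. The members, lists and tests were chosen with earlier results of these data known. Named genes were those of 22 lists, the 25 highest and 15 lowest protein-coding genes by mean log2 ratio past 1.5-fold in both libraries and in at least 10% of nuclei on the higher side, and the 10 smallest p per test, of which some are not reported here. Counts were summed per library and tested with edgeR 4.0.16 in R 4.3.3 (TMM, filterByExpr, Benjamini-Hochberg), which was tested on simulated data. DESeq2 1.42.0 was an alternative. Of 56884 genes, 56323 matched GENCODE M39 by identifier, and 1 listed symbol, *Nrg1*, occurred more than once, of which the protein-coding entry was used. The deviations of same-numbered libraries from their group means had a Pearson correlation of 0.02 over 2863 genes. With 2 libraries per group, both replicate numbers give this same value, and 1 sum holds 1 nucleus. The value therefore cannot decide whether the libraries are paired.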

Additional observations from a re-analysis of the deposited data

How the results depend on the processing

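The uneven distribution of the members limits every comparison of genotypes: 1 library of each genotype held 1 or 2 members. The share in Dnmt1 KO minus control kept its sign under the 8 other settings with 4 libraries and ranged from -3.28 to 0.694 percentage points when a library was left out, reversing without control replicate 1. The replicate numbers were not taken to pair the libraries. The genotype test called 0 genes with the replicate block (48 at an unadjusted p under 0.05), and 0 to 2 genes when a library was left out, with *6530403H02Rik* and *Ranbp3l* passing without Dnmt1 KO replicate 1. DESeq2 called 1 gene (*Slit3*) and no low-count filter 1 (*Tll1*, 19 of its 20 transcripts from Dnmt1 KO replicate 1). These genes were named after their values were seen. The interaction called 1 gene with RLE size factors (*Slit3*), 3 with no low-count filter, 2 with doublets left out and 0 to 2 when a library was left out, the 2 (*Tll1* and *Gm36560*) without Dnmt1 KO replicate 2. Among settings chosen after seeing the data, it called 3 genes with *Slc17a6* nuclei left out and 24 with *Dlx6os1* nuclei alone, which rest on 1, 5 and 50 nuclei. The sign of the log2 value reversed for *Prox1* (-8.78) and *Gna14* (-6.87) with *Dlx6os1* nuclei alone, and, when a library was left out, *Gna14* ranged from -5.96 to 12.69 and *Gm31819* from -7.12 to 10.86, lowest without Dnmt1 KO replicate 2 and highest without control replicate 1, where the median of all genes tested was itself -6.85 and 5.82. With *Ebf1* of at least 3, doublets left out or either of the last settings, control replicate 2 had 0 members and was not in the fit. Of genes higher and lower in the members, 314 were higher against *Lhx6*-positive nuclei, 114 higher and 257 lower against *Meis2*-positive nuclei (69 of 157 and 111 of 321 shared), 257 higher and 393 lower with *Slc17a6* nuclei left out (99 and 234 shared), and 157 to 1618 were higher and 321 to 1285 lower when a library was left out, most without control replicate 1 (1618 and 1285) and next without Dnmt1 KO replicate 2 (609 and 1127), each from 1 library. The mean log2 ratio of *Zfhx3* (-0.40) reversed against *Meis2*-positive nuclei. That of *Meis2* (-0.058) reversed too, but these nuclei were chosen for *Meis2*, so its value depends on that choice. The ratios of *Nrn1* (-0.82) and *Sema3c* (-1.96) reversed with *Slc17a6* nuclei left out, a setting that by its construction also turns *Slc17a6* itself (-2.94). With the member that had most transcripts of a gene left out in each library, also chosen after seeing the data, 38 of the 40 genes named for their ratio stayed past 1.5-fold in both libraries, except *Dchs2* and *Nrn1*. The causes were not tested.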
